A study of Homo sapiens with 4 samples.

Results

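The transcription and 3′ end formation of replication-dependent histone messages depend on a known set of factors, and 10 genes that encode them were followed in Panc1 cells, an established human line from a pancreatic ductal carcinoma. They were taken by name and not by their values, though earlier results of these data were known: NPAT, CASP8AP2, SLBP, LSM10, LSM11, ERI1, CPSF2, CPSF3, SYMPK and CSTF2. All 10 were found among the 54628 genes of each count table, and all 10 were among the 15161 genes that passed the filter on low counts. Between libraries labelled HMGB2 siRNA and libraries labelled scramble, none of the 10 differed by as much as 1.5-fold. In the libraries labelled HMGB2 siRNA, which held more HMGB2 message (4021 and 2746 counts against 346 and 319), 3 rose by between 1.14-fold and 1.21-fold and 0 fell, beside 16.7% and 14.1% of all tested genes. The count of 3 was 1 or fewer in 7 of 13 other settings, and 0 without HMGB2 siRNA replicate 1.

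Most messages receive a poly(A) tail, but the histone messages made during DNA replication normally end in a short stem-loop instead. NPAT, a target of cyclin E and CDK2, and CASP8AP2, also called FLASH, gather at the histone gene clusters where these messages are made. The stem-loop is bound by SLBP, and the U7 small nuclear ribonucleoprotein, whose ring holds LSM10 and LSM11, pairs with the message further downstream. A complex with SYMPK, CPSF2, CPSF3 and CSTF2 is then brought in, and its endonuclease CPSF3 cuts the message. ERI1 is a 3′ to 5′ exonuclease that binds the same stem-loop and acts in trimming and decay.

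Poly(A) RNA was sequenced in 4 libraries, all from Panc1: 2 labelled HMGB2 siRNA, an RNA meant to lower the chromatin protein HMGB2, and 2 labelled Scramble siRNA. No other allele, agent, dose or time is given in the labels, and they do not say whether the libraries of a group came from separate cultures. The p-values therefore rest on the library-to-library spread alone, part or all of which may be technical. In the edgeR fit that spread was largely shared across genes (prior degrees of freedom 46.9) and was not measured from each gene alone. Total counts were 31852391 and 20976561 in the libraries labelled HMGB2 siRNA, against 21874647 and 20340695 in those labelled scramble. The keratin transcript KRT8 stood at 1960 to 2772 CPM (read counts after scaling every library to the same size) and VIM, a mesenchymal filament, at 2155 to 2477 CPM, while PTPRC, PECAM1 and ALB, markers of leukocytes, endothelium and hepatocytes, did not pass 0.0954 CPM in any library. Some epithelial markers moved with the labels: 4 of 6 were higher under the HMGB2 siRNA label and 0 were lower, beside 16.7% and 14.1% of all tested genes. KRT18 and EPCAM were not called, and neither was VIM (1.10-fold). CDH1 was 2.31-fold higher, KRT7 1.67-fold, KRT19 1.61-fold and KRT8 1.22-fold, and the 6 epithelial markers summed to 4552 and 4606 CPM against 4193 and 3271 CPM. Their part in the results was not tested.

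HMGB2 itself went against the labels. Its counts were 4021 and 2746 under the HMGB2 siRNA label, against 346 and 319 under the scramble label, which is 8.43-fold higher under the knockdown label. The log2 fold change was 3.07 ± 0.08 (SE), with an adjusted p of 1.54e-33 (quasi-likelihood test of edgeR, p-values adjusted by the Benjamini-Hochberg method over all tested genes). The headers of the count columns also name the other treatment in 4 of 4 tables. Groups are called here what the labels call them, so that "higher" means higher in the libraries labelled HMGB2 siRNA, which are the libraries with more HMGB2 message.

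The element that SLBP and ERI1 recognise is shown first, because it defines the messages that the 10 genes serve. It was searched in GENCODE 29 transcripts as GG, any 3 bases, 4 T, any base, A, any 3 bases and CC, with 6 bases on each side able to pair. Of 61 replication-dependent histone genes with a transcript there, 24 held a match, in the 4 forms below. Capitals mark the 6-base stem arms, and the 4 loop bases are in lower case. An annotated transcript that stops before the element gives no match.
Form in 13 genes: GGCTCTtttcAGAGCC
First form in 4 genes: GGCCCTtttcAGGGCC
Second form in 4 genes: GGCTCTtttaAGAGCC
Form in 3 genes: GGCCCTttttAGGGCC

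The search fixed the pairing of the arms and the 3 T that open the loop, so the forms differ in the inner arm bases and in the last loop base. Only histone messages that entered a poly(A) library were counted, and 27 of 65 replication-dependent histone genes passed the filter on low counts. Of these 27, 15 were lower under the HMGB2 siRNA label (HMGB2 counts 4021 and 2746 against 346 and 319) and 0 were higher. Their median log2 fold change was -0.88. Of all tested genes, 14.1% were called lower and 16.7% higher. Over all 65 such genes, tested or not, the summed level was 181 and 192 CPM in the libraries labelled HMGB2 siRNA, against 347 and 340 CPM in those labelled scramble. Among tested histone genes with a transcript, 9 of 14 with a stem-loop match and 5 of 11 without one were called lower. Many copies within a histone class are similar to one another, and reads may be split between them.

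The 10 control and processing genes did not fall with the histone messages that entered these poly(A) libraries. Histone messages without a poly(A) tail were not measured separately. Together the 10 summed to 541 and 536 CPM in the libraries labelled HMGB2 siRNA, against 512 and 507 CPM in those labelled scramble. By the edgeR quasi-likelihood test with an adjusted p under 0.05, 3 of the 10 were called higher (CPSF3, CASP8AP2 and CSTF2), where 16.7% of all tested genes were called higher. The count was 1 with upper-quartile or total-count scaling, without the low-count filter, with the replicate block, by DESeq2 and without HMGB2 siRNA replicate 2, and 0 without HMGB2 siRNA replicate 1. None (0 of 10) was called lower, where 14.1% of all tested genes were; at an unadjusted p under 0.05 there was also none lower, and DESeq2 and limma-voom called 0 lower as well. Both libraries labelled HMGB2 siRNA stood above both labelled scramble for 7 of the 10, which held for 32.0% of all tested genes, and below both for 0, which held for 31.6%. These positions were read with the scaling used for CPM, and the 7 depends on it. Divided by plain library totals, the counts of NPAT, SLBP, SYMPK and ERI1 overlapped between the groups. Those of CPSF3, CASP8AP2 and CSTF2 did not. The shares of all tested genes were not recounted that way. The median log2 fold change of the 10 was 0.08, and that of all tested genes was -0.01. With total-count scaling these medians were 0.04 and -0.05, and with upper-quartile scaling 0.03 and -0.06.

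Sizes were small. The 95% interval of every one of the 10 lay within 1.5-fold, the outermost bounds being 0.845-fold for LSM10 and 1.34-fold for CPSF3. The median absolute log2 fold change was 0.09 over the 10 genes and 0.21 over all tested genes. With 2 libraries a group, the standard error of each log2 fold change was 0.07 to 0.16. A gene that was not called is therefore bounded by its interval and is not shown to be level.

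**Figure D1:**
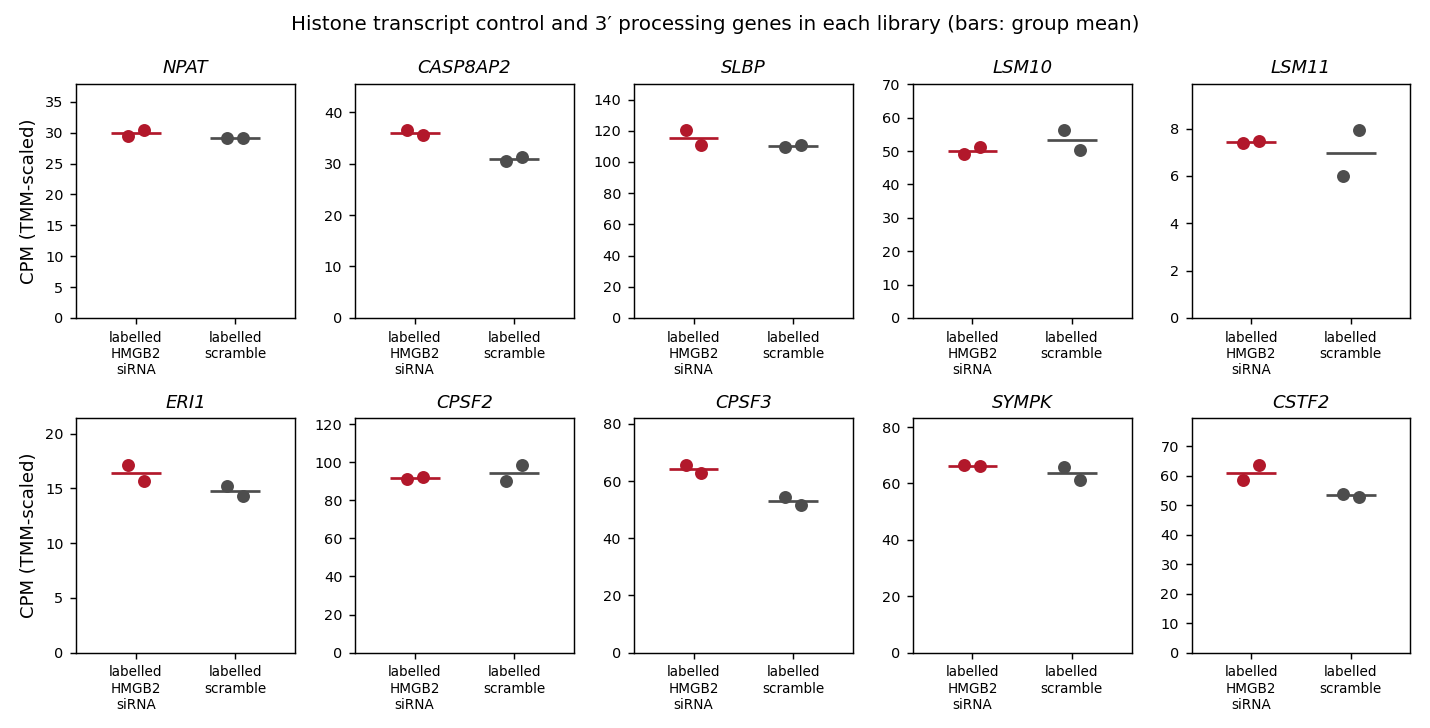
Level of each of the 10 genes in CPM (y axis, from 0) in the 2 libraries labelled HMGB2 siRNA (red, left) and the 2 labelled scramble (grey, right); points are libraries and bars are group means. For CPSF3 the red points, at 65.5 and 63.0 CPM, stand clear of the grey points at 54.6 and 51.6 CPM, while for CPSF2, LSM10 and LSM11 the groups overlap.

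**Figure D2:**
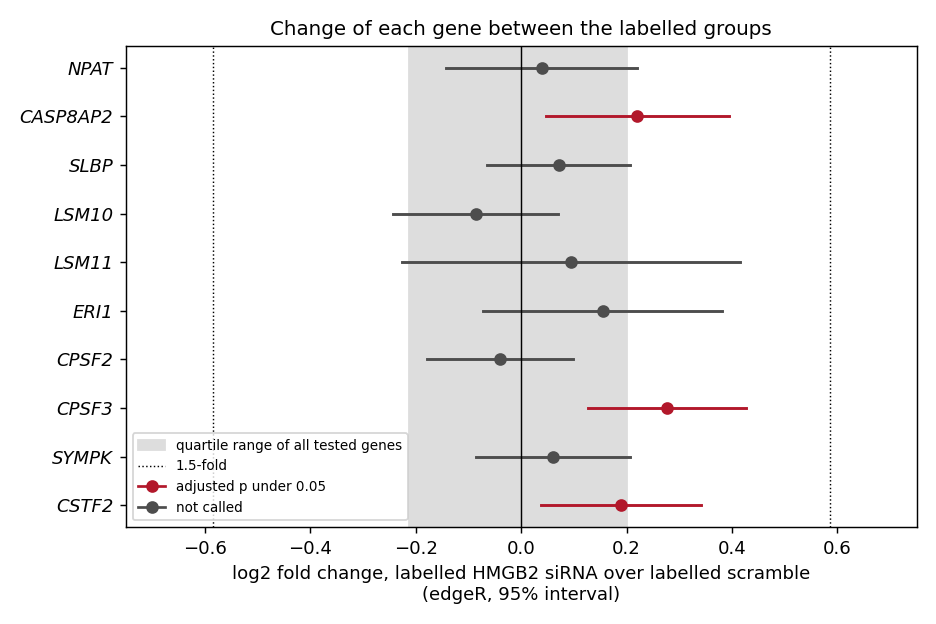
Log2 fold change of each gene, labelled HMGB2 siRNA over labelled scramble (x axis), with its 95% interval from edgeR; red marks an adjusted p under 0.05, the grey band spans the quartiles of all tested genes (-0.21 to 0.20) and dotted lines mark 1.5-fold. Every interval lies between the dotted lines, and 3 of them (CASP8AP2, CPSF3 and CSTF2) lie wholly above 0.

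Of the 2 genes tied to transcription at the histone clusters, CASP8AP2 was called and NPAT was not, though their 95% intervals overlapped (1.03-fold to 1.31-fold and 0.906-fold to 1.16-fold). NPAT, the coactivator that switches on the clusters (chromosome 11, 108155280 to 108222638, minus strand), had 29.5 and 30.4 CPM in the libraries labelled HMGB2 siRNA, against 29.1 and 29.1 CPM in those labelled scramble. The groups did not overlap, yet the gap was 2.75% (log2 fold change 0.04 ± 0.09 SE; edgeR adjusted p = 0.791), and the sign turned with upper-quartile and total-count scaling (-0.01 for both). CASP8AP2 (FLASH), which binds LSM11 and so links the clusters to the cutting machinery (chromosome 6, 89829880 to 89874436, plus strand), had counts of 1145 and 730 under the HMGB2 siRNA label, against 672 and 653 under the scramble label. That is 36.4 and 35.6 CPM, against 30.5 and 31.3 CPM. Both values under the HMGB2 siRNA label (HMGB2 counts 4021 and 2746 against 346 and 319) were above both under the scramble label.

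CASP8AP2 was 1.16-fold higher (95% interval 1.03 to 1.31; log2 fold change 0.22 ± 0.09 SE; edgeR adjusted p = 0.0467). The call is a narrow one: the adjusted p was 0.136 with total-count scaling and 0.175 by DESeq2. It was also lost without HMGB2 siRNA replicate 1 (adjusted p = 0.335), without HMGB2 siRNA replicate 2 (0.199) and without Scramble siRNA replicate 1 (0.0619). Exons of CASP8AP2 are also listed on 1 alternative sequence of the assembly, where reads that map to both copies could be dropped or counted again. NPAT shares 1.5% of its exon bases with ATM on the opposite strand, and reads there cannot be told apart without the strand setting.

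Genes that act on the clusters upstream of these factors were examined next. Of 7 such inputs (HINFP, POU2F1, YY1, GON4L, CDK2, CCNE1 and CCNE2), 1 was higher and 0 were lower, beside 16.7% and 14.1% of all tested genes, with a median log2 fold change of 0.17. The one called was YY1, a zinc finger factor, at 120.3 ± 2.8 against 105 ± 5.1 CPM (SD, n = 2 each; 1.14-fold). CDK2, the kinase partner of cyclin E, averaged 96.5 ± 4.6 CPM in libraries labelled HMGB2 siRNA and 85.7 ± 4.9 CPM in scramble libraries (SD, n = 2 each). It was not called (edgeR adjusted p = 0.0611). YY1 shares 31.8% of its exon bases with SLC25A29 on the opposite strand.

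SLBP, the protein that holds the stem-loop from cutting through export and translation (chromosome 4, 1692731 to 1715876, minus strand), had 120.2 and 111.2 CPM in the libraries labelled HMGB2 siRNA, against 109.8 and 110.6 CPM in those labelled scramble. Over plain library totals its groups overlapped. With the scaling used for CPM they did not, but 1 library, HMGB2 siRNA replicate 1, carried most of the gap. The log2 fold change was 0.07 ± 0.07 (SE; edgeR adjusted p = 0.466), or 1.05-fold with a 95% interval of 0.957 to 1.15, and it was 0.01 without that library. In the same poly(A) libraries the histone messages that entered them summed to 181 and 192 CPM against 347 and 340 CPM.

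ERI1, the exonuclease that shares the stem-loop with SLBP (chromosome 8, 8892225 to 9100262, plus strand), had 17.1 and 15.6 CPM in the libraries labelled HMGB2 siRNA, against 15.2 and 14.3 CPM in those labelled scramble. With the scaling used for CPM the groups did not overlap, but over plain library totals they did. The log2 fold change was 0.15 ± 0.11 (SE; edgeR adjusted p = 0.323). ERI1 is also listed on 1 alternative sequence of the assembly and shares 4.24% of its exon bases with MFHAS1 on the opposite strand.

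Profiles most like that of SLBP were sought among 10660 other genes of at least 5 CPM, by Euclidean distance between log2 CPM values centred on each gene's mean over the 4 libraries. The nearest were SRP9 (distance 0.0059), a subunit of the signal recognition particle, WDR70 (0.0123) and BRI3 (0.0133). SRP9 had 279 and 259.6 CPM in the libraries labelled HMGB2 siRNA, against 256 and 257 CPM in those labelled scramble. With 4 libraries many genes share so flat a profile, and the likeness is a description only.

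Among regulators of SLBP, 6 genes were examined. Of these genes that phosphorylate it or direct its breakdown (CDK1, CCNA2, CSNK2A1, CSNK2A2, DCAF11 and CCNF), 4 were higher in the libraries labelled HMGB2 siRNA (HMGB2 counts 4021 and 2746 against 346 and 319), 1 was lower and 1 was not called; over all tested genes, 16.7% were higher and 14.1% lower. Their median log2 fold change was 0.24. CDK1, a mitotic kinase that marks SLBP for loss at the end of S phase, had 173 and 177 CPM against 117 and 107 CPM and was 1.56-fold higher (edgeR adjusted p = 4.16e-11). CCNF, the cyclin F subunit of an SCF ubiquitin ligase, had 73.0 and 71.1 CPM against 54.1 and 45.8 CPM and was 1.44-fold higher (adjusted p = 2.86e-07). The proliferation marker MKI67 moved alongside, at 488 and 565 CPM in the libraries labelled HMGB2 siRNA against 358 and 314 CPM in those labelled scramble, and PCNA stood at 116 and 122 CPM against 107 and 90.5 CPM. TOP2A, another such marker, had 287 and 291 CPM against 261 and 264 CPM and was not called (edgeR adjusted p = 0.0961). The part of cell cycle position in any of these values was not tested.

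The 2 proteins found in the U7 ring but not in the spliceosomal ring were not called. LSM10 (chromosome 1, 36393436 to 36397908, minus strand) had 49.2 and 51.1 CPM in the libraries labelled HMGB2 siRNA, against 56.1 and 50.2 CPM in those labelled scramble. The groups overlapped, with a log2 fold change of -0.09 ± 0.08 (SE; edgeR adjusted p = 0.439). LSM11, which carries the contact for FLASH (chromosome 5, 157743712 to 157760709, plus strand), had 232 and 153 counts under the HMGB2 siRNA label, against 132 and 165 under the scramble label. That is 7.38 and 7.46 CPM, against 6.0 and 7.92 CPM, and the libraries labelled scramble lay on either side of the others. LSM11 had the widest interval of the 10 (0.855-fold to 1.33-fold; adjusted p = 0.707), and its log2 fold change was -0.09 without Scramble siRNA replicate 1 and 0.31 without Scramble siRNA replicate 2.

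LSM10 and LSM11 share their ring with general Sm proteins. Of the 5 Sm proteins that complete the ring and ZNF473, a zinc finger protein bound to U7 particles, 3 of 6 were higher in the libraries labelled HMGB2 siRNA (HMGB2 counts 4021 and 2746 against 346 and 319), 0 were lower, and the median log2 fold change was 0.18, beside 16.7% higher and 14.1% lower among all tested genes. SNRPD3 had 129 and 138 CPM against 92.3 and 95.5 CPM and was 1.42-fold higher (edgeR adjusted p = 3.53e-08). SNRPG had 129 and 127 CPM against 108 and 102 CPM and was 1.22-fold higher (adjusted p = 0.000772). These Sm proteins also form the rings of the spliceosomal particles, so their messages do not belong to U7 alone. SNRPD3 shares 7.34% of its exon bases with GUCD1 on the opposite strand.

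In the cutting complex, CPSF3 and CSTF2 were called higher, and CPSF2 and SYMPK were not called. CPSF3, the subunit that cuts both histone and polyadenylated messages (chromosome 2, 9423654 to 9473101, plus strand), had counts of 2060 and 1292 under the HMGB2 siRNA label, against 1201 and 1076 under the scramble label. Scaled, these are 65.5 and 63.0 CPM, against 54.6 and 51.6 CPM. Both libraries with high HMGB2 counts (4021 and 2746 against 346 and 319) stood above both others.

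CPSF3 was 1.21-fold higher (95% interval 1.09 to 1.34; log2 fold change 0.28 ± 0.07 SE; edgeR adjusted p = 0.00325), the largest change of the 10. Of all tested genes, 60.6% changed less than it did on the log2 scale. It was called in 12 of 13 alternative settings, and lost its call without HMGB2 siRNA replicate 1 (log2 fold change 0.25, adjusted p = 0.139), the deepest library. CPSF2, its catalytically inactive relative (chromosome 14, 92121969 to 92172145, plus strand), had 91.2 and 92.3 CPM in the libraries labelled HMGB2 siRNA, against 90.3 and 98.4 CPM in those labelled scramble. Those groups overlapped, and the log2 fold change was -0.04 ± 0.07 (SE; edgeR adjusted p = 0.710). Per kilobase of exon, CPSF3 over CPSF2 came to 2.73 and 2.59 in the libraries labelled HMGB2 siRNA, against 2.29 and 1.99 in those labelled scramble. The exact two-sided permutation p for this ratio was 0.333, the smallest that 2 against 2 libraries can give.

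SYMPK, the symplekin scaffold (chromosome 19, 45815410 to 45863167, minus strand), had 66.5 and 66.1 CPM in the libraries labelled HMGB2 siRNA, against 66.0 and 61.1 CPM in those labelled scramble. With the scaling used for CPM the groups missed overlap by a narrow margin, and over plain library totals they overlapped. SYMPK was not called (log2 fold change 0.06 ± 0.07 SE; edgeR adjusted p = 0.585). CSTF2, an RNA-binding subunit also known as CstF64 (chromosome X, 100820369 to 100843534, plus strand), had 1836 and 1304 counts under the HMGB2 siRNA label, against 1188 and 1099 under the scramble label. In CPM these were 58.4 and 63.5, against 54.0 and 52.7. The groups did not overlap (HMGB2 counts 4021 and 2746 against 346 and 319), and CSTF2 was 1.14-fold higher (95% interval 1.03 to 1.27; log2 fold change 0.19 ± 0.08 SE).

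Its edgeR adjusted p of 0.0499 lay at the threshold. It was 0.0508 with RLE scaling, 0.055 by limma-voom and 0.151 by DESeq2, and the call held only in thinned libraries (0.0497) and without Scramble siRNA replicate 1 (0.022). Without HMGB2 siRNA replicate 1 the adjusted p was 0.126, without HMGB2 siRNA replicate 2 it was 0.484, and without Scramble siRNA replicate 2 it was 0.0714. Its intronless paralog CSTF2T averaged 31.8 ± 2.6 CPM in libraries labelled HMGB2 siRNA and 31.6 ± 3.5 CPM in those labelled scramble (SD, n = 2 each; adjusted p = 0.989). CSTF2 shares 3.56% of its exon bases with NOX1 on the opposite strand, which had 0 counts in each library.

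**Figure D3:**
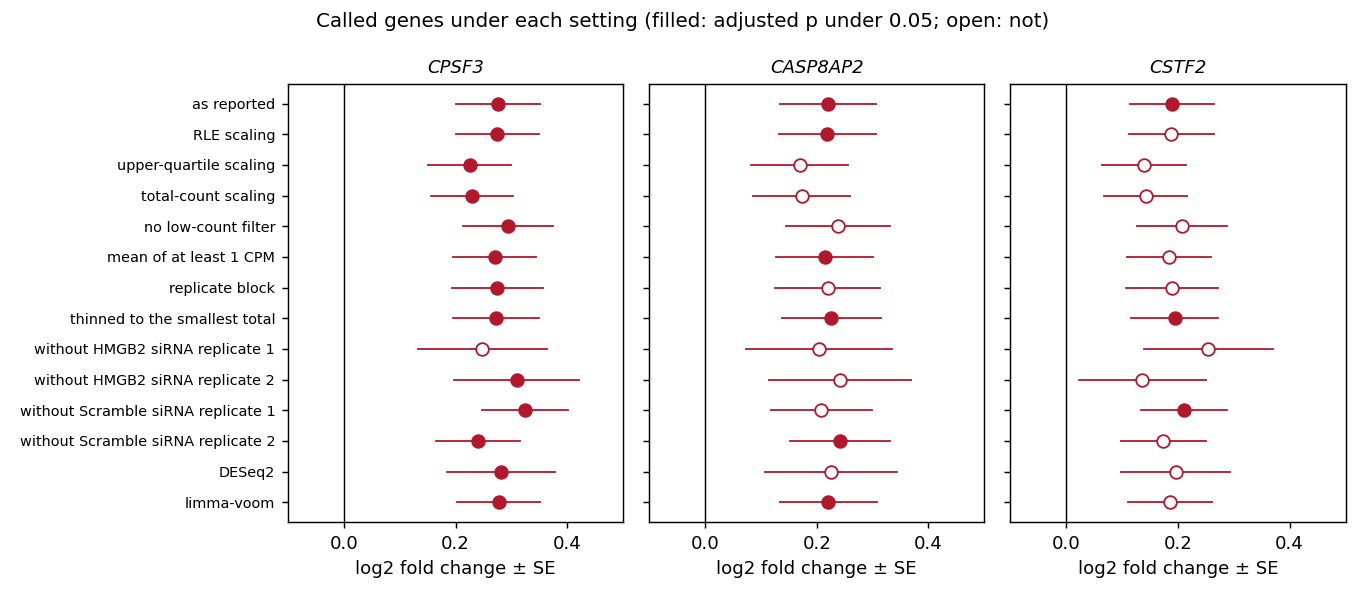
Log2 fold change ± SE (x axis) of CPSF3, CASP8AP2 and CSTF2, labelled HMGB2 siRNA over labelled scramble, as reported and under each of 13 other settings (rows); filled points have an adjusted p under 0.05. All points lie above 0; CPSF3 is open once, CASP8AP2 in 8 settings and CSTF2 in 11.

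The wider cleavage and polyadenylation machinery serves all polyadenylated messages. Of 15 genes (CPSF1, CPSF4, WDR33, FIP1L1, CSTF1, CSTF3, CSTF2T, CPSF6, CPSF7, NUDT21, PCF11, CLP1, PAPOLA, PABPN1 and RBBP6), 2 were higher and 1 lower in the libraries labelled HMGB2 siRNA, beside 16.7% and 14.1% of all tested genes, and their median log2 fold change was -0.02. NUDT21, which binds the message ahead of the cut and steers the choice of poly(A) site, had 82.9 and 77.7 CPM against 56.6 and 61.7 CPM and was 1.36-fold higher (edgeR adjusted p = 3.41e-06). CSTF3, the scaffold that joins CSTF1 and CSTF2, went the other way, with 34.6 and 34.7 CPM in the libraries labelled HMGB2 siRNA (HMGB2 counts 4021 and 2746 against 346 and 319), against 43.2 and 46.8 CPM in those labelled scramble. Its log2 fold change was -0.38 ± 0.08 (SE; adjusted p = 0.000323), while CSTF2, its partner, had 0.19.

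Other factors meet histone messages at the cap or during elongation. Among 8 (NCBP1, NCBP2, SRRT, NELFA, NELFB, NELFCD, NELFE and CDK9), 1 was higher and 2 were lower, beside 16.7% and 14.1% of all tested genes, with a median log2 fold change of -0.03. NCBP2, the small cap-binding subunit, averaged 146 ± 2.8 against 173 ± 3.0 CPM (SD, n = 2 each; adjusted p = 0.0027), with 36.3% of its exon bases shared with SENP5 on the opposite strand. NELFE had only 75 and 49 counts against 100 and 81 (adjusted p = 0.00423), and is also listed on 5 alternative sequences of the assembly.

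Histone messages are removed at the end of S phase by a dedicated route that also uses general decay enzymes. Of 16 genes for histone message translation and decay, 15 were tested (LSM2 was not), 6 were higher, 1 was lower and 8 were not called, with a median log2 fold change of 0.10; over all tested genes, 16.7% were higher and 14.1% lower. DCP2, the enzyme that removes the cap, had 107 and 103 CPM in the libraries labelled HMGB2 siRNA (HMGB2 counts 4021 and 2746 against 346 and 319), against 42.6 and 48.7 CPM in those labelled scramble. It was 2.31-fold higher (edgeR adjusted p = 1.06e-18). DCP1A, its activator, had 39.3 and 41.6 CPM against 14.4 and 17.6 CPM and was 2.53-fold higher (adjusted p = 7.35e-16). Decapping also serves most other messages.

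Levels among the 10 genes were compared per kilobase of exon on the main chromosome, since raw CPM grows with transcript length. LSM10 was highest, at 57.2 to 65.3 CPM per kilobase over the 4 libraries, and LSM11, its partner in the same ring, was lowest, at 0.913 to 1.21. Their means differed by 54.9-fold. Between them came CPSF3 (14.8 to 18.8), SLBP (16.3 to 17.9), SYMPK (14.1 to 15.3), CSTF2 (8.91 to 10.7), CPSF2 (6.83 to 7.44), CASP8AP2 (4.50 to 5.37), NPAT (3.14 to 3.27) and ERI1 (1.70 to 2.03). Among neighbours in this order, CPSF3 and SLBP overlapped, and no other pair did; CPSF3 also overlapped SYMPK. The exon lengths pool all listed isoforms, and copies on alternative sequences can lower the counts of CASP8AP2 and ERI1, so their places are approximate.

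**Figure D4:**
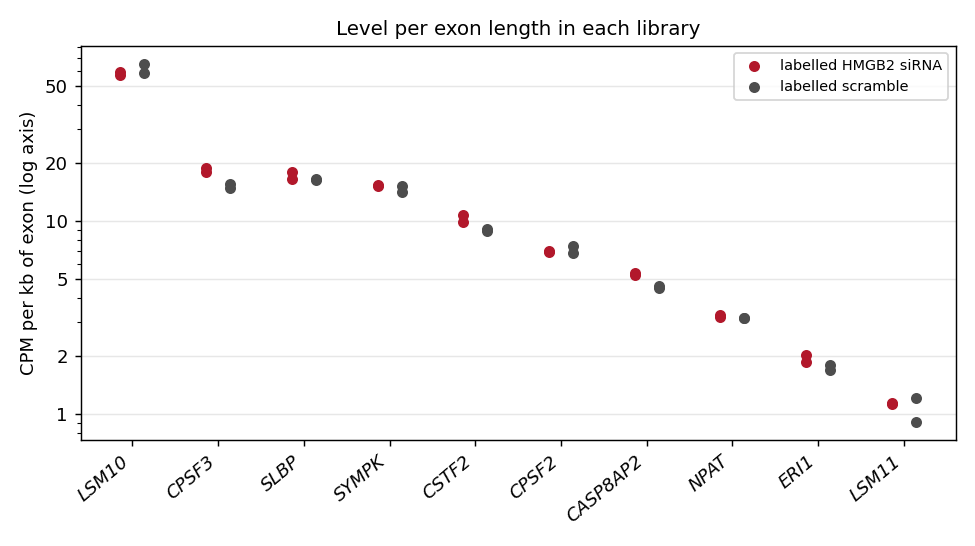
Level per kilobase of exon (y axis, log scale) of each gene, ordered from highest to lowest, in the libraries labelled HMGB2 siRNA (red, left) and labelled scramble (grey, right); each point is a library. LSM10 stands at 57.2 to 65.3 and LSM11 at 0.913 to 1.21; neighbouring genes do not overlap except CPSF3 and SLBP.

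Promoters were examined because the 3 called genes were called in the same direction, and whether they share control was not tested. Sequences of 300 bases, 250 before to 50 after the start, came from RefSeq (GRCh38.p14), and 9 of the 10 genes had an entry; ERI1 was not matched. After the calls were known, 18 motifs were searched on both strands, and several were forms of the site bound by E2F cell cycle factors. Of these, TTTGGCGC was present in 3 of the 9 promoters. Those were CPSF3, CASP8AP2 and CSTF2, the 3 genes that were called, while 0.652% of all 35116 promoters held it, and 1.11% of those of tested genes. The motif is shown because these 3 promoters held it, and the calls of CASP8AP2 and CSTF2 were lost in most other settings, so the coincidence is a description only. It overlaps the shorter motif TTGGCGC, which the same 3 promoters held with 3.04% of all promoters and 4.95% of those of tested genes. The 100-base windows below hold 1 match each, in capitals, written along the gene's strand.
CPSF3, chr2:9423404-9423503, plus strand: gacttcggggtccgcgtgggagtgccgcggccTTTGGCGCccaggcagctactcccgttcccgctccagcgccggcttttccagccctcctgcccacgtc
CASP8AP2, chr6:89829685-89829784, plus strand: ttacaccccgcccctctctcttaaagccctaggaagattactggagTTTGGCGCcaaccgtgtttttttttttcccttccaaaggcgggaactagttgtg
CSTF2, chrX:100820299-100820398, plus strand: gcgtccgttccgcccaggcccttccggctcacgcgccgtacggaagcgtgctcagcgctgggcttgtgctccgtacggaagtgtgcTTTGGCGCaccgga

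Counted to the RefSeq start, the match began 218 bases before it in CPSF3, 149 before it in CASP8AP2 and 6 before it in CSTF2. For CSTF2 the RefSeq start (100820391) lies inside the gene as the count tables list it, and the match began 16 bases after the start in those tables. Over all tested genes with a promoter entry (11136), 124 held TTTGGCGC, among them CPSF3, CASP8AP2 and CSTF2. Of the 124, 35.5% were called higher in the libraries labelled HMGB2 siRNA (HMGB2 counts 4021 and 2746 against 346 and 319) and 7.26% lower, against 18.2% and 14.4% of all 11136. Shares differed among other E2F forms: of the tested genes holding TTTCCCGC, 24.9% were called higher and 14.2% lower, of those holding TTTCGCGC 23.1% and 15.7%, and of those holding TTTGCCGC 10.8% and 15.7%. These 3 forms were in 0 of the 9 promoters, and in 1.63%, 0.515% and 0.607% of all promoters. CCAAT was in 4 of the 9 (NPAT, CASP8AP2, LSM10 and CPSF2), 34.6% of all promoters and 36.1% of those of tested genes. GGGCGG was in 6 of the 9, 45.0% of all and 70.2% of those of tested genes. A match of letters is a description of the window and shows no binding.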

How the data were processed

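The deposited values are whole-number read counts per gene from poly(A) RNA, summed over exons listed in each table, per the file headers; the authors' counts were not normalized. STAR, SAMtools 1.9, featureCounts of Subread 1.6.3 and DESeq2 are the tools in the submitters' processing notes, which give hg38 (GRCh38) as the build. Strand, multimapping and overlap settings are not given in the sources used here. Samples were grouped by their treatment labels, which the column headers contradict.

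Counts were tested with edgeR 4.0.16 (R 4.3.3; glmQLFit, glmQLFTest, TMM, filterByExpr with a smallest count of 10 and total of 15), group as the only term, Benjamini-Hochberg adjustment over all 15161 genes. CPM use TMM-scaled sizes; intervals are 95% and cover the fitted spread. Alternatives included DESeq2 1.42.0 and limma-voom (limma 3.58.1). The procedure was tested on simulated data with known changes. Replicates differed beyond counting noise (chi-square per degree of freedom 2.93 and 5.23). Genes named from lists are the 2 with the smallest p; 1 gene of the list of SLBP regulators is not reported here. Members, lists and motifs were chosen with earlier results of these data known.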

Additional observations from a re-analysis of the deposited data

How the results depend on the processing

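The count of the 10 genes called higher, 3 as reported, was 1 with upper-quartile scaling, with total-count scaling, without the low-count filter, with the replicate block (adjusted p of 0.0617 for CASP8AP2 and 0.0657 for CSTF2) and by DESeq2, and ranged from 0 to 2 when 1 library was left out. The 1 left in these settings was CPSF3, and RLE scaling, a minimum mean of 1 CPM and limma-voom gave 2. The count called lower was 0 in all 13 settings. HMGB2 kept its direction and call in all 13 (log2 fold change 3.02 to 3.11; edgeR adjusted p as reported 1.54e-33). Signs of genes that were never called turned in 5 cases: NPAT with upper-quartile (-0.012) and total-count scaling (-0.0078), LSM10 and LSM11 without Scramble siRNA replicate 1, and CPSF2 without Scramble siRNA replicate 2. With each library left out in turn, the log2 fold change ranged from -0.164 to 0.0037 for LSM10, from -0.0883 to 0.308 for LSM11 and from -0.0946 to 0.0244 for CPSF2. Over all tested genes, 54.3% of calls were higher as reported, 42.0% with upper-quartile and 43.3% with total-count scaling. Calls over all genes numbered 2536 higher and 2135 lower as reported, 1481 and 903 without HMGB2 siRNA replicate 1, 1603 and 1024 without replicate 2 of that label, and 1834 and 1055 by DESeq2. Same-numbered libraries did not deviate together (correlation -0.0327 over 10661 genes), so the labels' numbers are not shown to pair libraries and the block is given as an alternative only. The cause of these shifts was not tested. LSM11 had the fewest counts of the 10, 132 to 232 a library.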

Other observations

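Other subunit ratios were taken per kilobase of exon. CPSF3 over SYMPK was 1.23 and 1.19 in the libraries labelled HMGB2 siRNA, against 1.03 and 1.05 in those labelled scramble. CSTF2 over CSTF2T was 1.35 and 1.31 in the libraries labelled HMGB2 siRNA, against 1.28 and 1.07 in those labelled scramble. LSM11 over LSM10 was 0.0197 and 0.0191 in the libraries labelled HMGB2 siRNA, against 0.014 and 0.0207 in those labelled scramble, and the groups overlapped. The exact two-sided permutation p was 0.333 for CPSF3 over SYMPK and for CSTF2 over CSTF2T, the smallest that 2 against 2 libraries can give, and 1 for LSM11 over LSM10.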
